A study of Mus musculus with 3 samples.

Results

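The replication-dependent histone cluster genes supply the bulk of new histone protein to dividing cells. They were taken as every gene whose symbol began with Hist1h, Hist2h, Hist3h or Hist4h in the GENCODE M21 mouse annotation, which lists 70. Of these, 68 were found among the 50600 genes of the deposited count tables by their identifier, and Hist1h2bh and Hist1h2bm were not analysed here. The 68 were 6 linker histone H1 genes, 20 H2A genes, 17 H2B genes, 12 H3 genes and 13 H4 genes, 65 of them annotated as protein-coding and 3 as pseudogenes (Hist1h2aj, Hist1h2al and Hist3h2bb-ps). The cells were regulatory T cells, the CD4 T cells that restrain immune responses, taken as primary cells from C57BL/6NJ mice. Per the file headers they had been activated for 16 hours. There was 1 group of 3 libraries, numbered replicates 2, 3 and 4 in the labels, with no untreated or resting cells beside them.

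Histone cluster genes are transcribed mainly in S phase, when the copied genome has to be packed into chromatin again. Their genes are small and mostly lack introns, and their mRNAs are the main class of animal mRNA that normally ends without a poly(A) tail. The mRNA ends instead just after a short stem-loop, which is bound by the protein SLBP and cut with the help of the U7 small nuclear RNP. Replacement variants such as H3.3 and H2A.Z are encoded elsewhere, carry poly(A) tails and are made throughout the cell cycle. In activated lymphocytes the demand for new histones goes with entry into division.

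The stem-loops of 8 cluster genes are shown because they are the element that sets these transcripts apart. They are from GENCODE M21 transcripts (build GRCm38, which is mm10), 5′ to 3′ on the coding strand, as 26 bases with the 16-base stem-loop in capitals.
Hist1h3a, chr13:23761885-23761910, minus strand: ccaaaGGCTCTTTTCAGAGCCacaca
Hist1h2bj, chr13:22043633-22043658, plus strand: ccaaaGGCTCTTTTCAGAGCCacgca
Hist1h2bk, chr13:22036295-22036320, plus strand: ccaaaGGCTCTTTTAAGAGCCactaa
Hist1h1e, chr13:23621777-23621802, minus strand: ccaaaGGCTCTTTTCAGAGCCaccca
Hist1h1c, chr13:23739507-23739532, plus strand: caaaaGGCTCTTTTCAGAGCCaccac
Hist1h4d, chr13:23581945-23581970, plus strand: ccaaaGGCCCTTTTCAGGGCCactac
Hist1h4i, chr13:22040961-22040986, minus strand: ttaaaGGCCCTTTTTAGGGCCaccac
Hist1h4b, chr13:23757361-23757386, plus strand: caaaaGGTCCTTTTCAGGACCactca

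A stem-loop of this form was found in the annotated transcripts of 42 of the 68 genes, starting 21 to 58 bases after the stop codon (median 31.5). The commonest form, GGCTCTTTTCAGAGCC, stood in 24 genes, none of them an H4 gene. The 11 H4 genes with a match held 3 other forms, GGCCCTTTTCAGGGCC in 7, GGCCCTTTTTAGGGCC in 2 and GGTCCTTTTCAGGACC in 2, and no gene of another class held any of these 3. Of the 26 genes without a match, 15 had transcripts annotated to end within 30 bases of the stop codon and 3 had no coding sequence, so the letters could not appear in the annotation of most of them. Among 21884 other protein-coding genes 4 held the same pattern (0.0183%), namely H2afx, H2bfm, Syncrip and Trim17. In these the whole transcript was searched, not only the part after the stop codon. Trim17 overlaps the member Hist3h2a on the same strand, and whether its match is the same site was not checked. H2afx, the replacement variant H2A.X, is known to make both a stem-loop form and a polyadenylated form of its mRNA.

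The libraries held 41222058, 47665060 and 99097524 assigned fragments in replicates 2, 3 and 4, so replicate 4 is the most precise for low genes. The assay label names total RNA, whereas the linked library protocol is named for polyadenylated RNA. Which of these was used bears directly on transcripts without a tail, and its part in the levels below was not tested. All 3 libraries carry 1 donor identifier and no sex, yet Xist, the RNA of the inactive X chromosome, was at 126, 0.331 and 36.1 TPM, and the Y-linked Ddx3y at 0.126, 39.3 and 28.4 TPM. The libraries therefore stand apart in sex-linked RNA: replicate 2 had Xist with almost no Ddx3y, replicate 3 the reverse, and replicate 4 both. That is not the pattern of 1 animal, and the labels do not say how many animals each library holds. The tests of equal rates below set differences between these libraries against counting error alone. All 6 regulatory T cell markers (Foxp3, Il2ra, Ctla4, Ikzf4, Cd3e and Cd4) were above 10 TPM in every library. Of the markers of other cells, the 4 myeloid genes summed to 0 to 0.0489 TPM and the 3 erythroid genes to 0 to 0.0378 TPM. The 3 CD8 T cell genes summed to 28.6, 29.0 and 24.4 TPM, almost all of it from Cd8b1, with Gzmk without a fragment. The B cell gene Igkc had 15, 48 and 43 fragments and was called between libraries by the rule for library differences, with its highest CPM in replicate 3. The part of other cells in the histone levels was not tested.

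The histone cluster genes were low in all 3 libraries. They took 657, 925 and 1896 fragments in replicates 2, 3 and 4, which was 0.00159%, 0.00194% and 0.00191% of each library (95% Wilson intervals 0.00148% to 0.00172%, 0.00182% to 0.00207% and 0.00183% to 0.00200%). As TPM, which is fragments per base of counted exon scaled to the same total in each library, all 68 genes summed to 92.6, 117 and 119 TPM, a mean of 110 ± 14.8 (SD, n = 3). Replicate 2 was the lowest and the other 2 lay close together. The members are short, so the length used matters: with 200 bases taken off each length the sum was 168 TPM. Per gene, the median of the mean level was 0.559 TPM, beside 0.355 TPM over 21764 protein-coding genes, many of which are silent in any 1 cell type.

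At a threshold of 1 TPM in every library, 17 of the 68 members were detected, or 25%, beside 45.6% of protein-coding genes (9926 of 21764). At 10 TPM the count was 1, and at 0.5 TPM it was 23. A further 35 members were under 1 TPM in every library. In fragments, 32 members had at least 1 in every library, 19 had some in 1 or 2 libraries, and 17 had none at all. The top gene made 14.4% of the summed mean TPM, the top 5 made 46.4% and the top 10 made 65.8%, and 6 genes were enough for 50%.

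**Figure D1:**
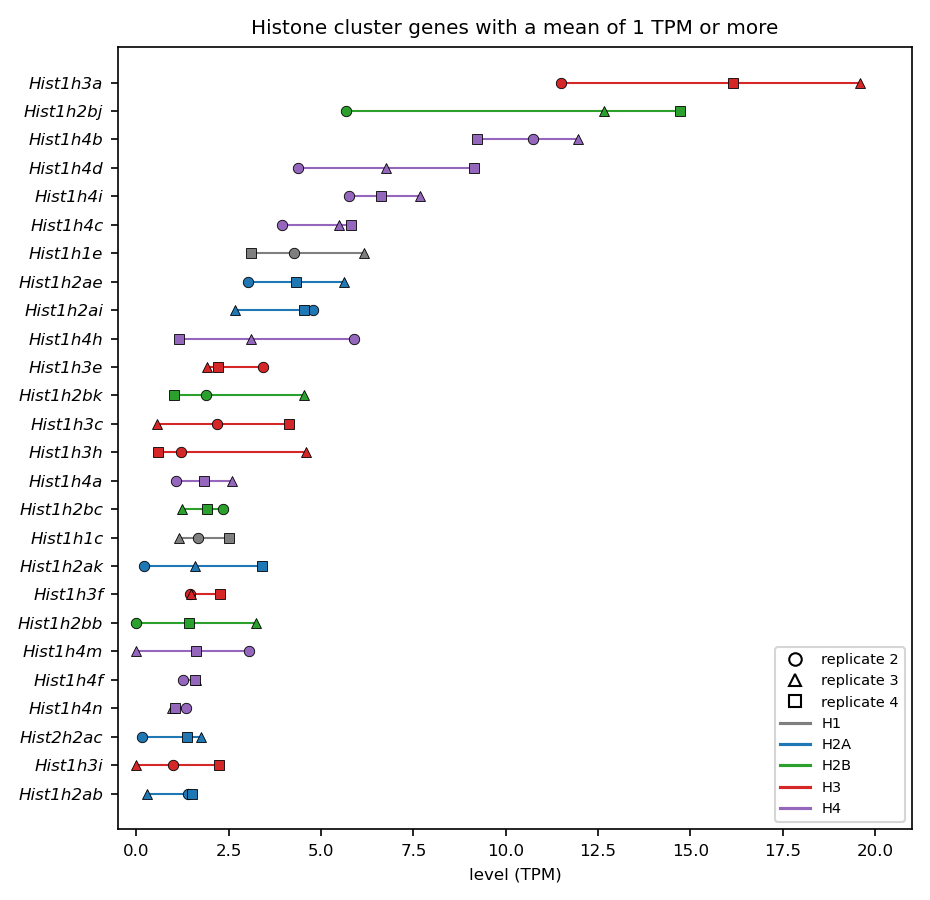
Level in TPM (horizontal axis) of the histone cluster genes with a mean of 1 TPM or more, 1 row per gene, with 1 marker per library, a line from lowest to highest library and colours for histone class. Hist1h3a is the top gene at 11.5 to 19.6 TPM, and most genes below the first 10 rows lie under 5 TPM with libraries far apart.

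Histone H3 forms the core of the nucleosome with H4. The H3 genes summed to 21.5, 29.2 and 28.6 TPM, a mean of 26.4 ± 4.28 TPM (SD, n = 3), or 24.04% of the summed level of all members. Most of that came from 1 gene, Hist1h3a (chr13:23761853-23762386, minus strand), the highest of all members at 11.5, 19.6 and 16.1 TPM from 75, 150 and 252 fragments. It was lowest in replicate 2. Its highest-to-lowest ratio of 1.76 stayed below the 2-fold needed for a call, although the rates differed at an adjusted p of 6.62e-04 (chi-square test of equal rates). The next H3 genes were Hist1h3e at 3.43, 1.92 and 2.21 TPM, Hist1h3c at 2.18, 0.571 and 4.13 TPM, and Hist1h3h at 1.20, 4.58 and 0.583 TPM. No library was the highest for all of them.

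The H3 genes encode 2 proteins that differ in a single residue, H3.1 and H3.2. The 4 H3.1 genes summed to 14.3, 25.2 and 19.0 TPM, and the 8 H3.2 genes to 7.23, 4.08 and 9.58 TPM. H3.1 therefore had the higher counted sum in each of the 3 libraries. Of the 100-base stretches of the H3.1 genes, 32.2% (Hist1h3a) to 92.0% (Hist1h3h) were also found in other genes. For the H3.2 genes this was 38.7% (Hist1h3c) to 100% (Hist2h3b). These shares include genes annotated over a member on the opposite strand, as for Hist2h3b. The part of fragments lost to copies was not tested. Hist1h3a alone accounted for most of the H3.1 sum.

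Histone H4 was the class with the highest level. Its 13 genes summed to 39.1, 40.3 and 39.5 TPM, a mean of 39.6 ± 0.639 TPM (SD, n = 3) and the steadiest of the 5 class sums, and they made 36.6% of the summed level. All 13 genes had at least 1 fragment, 7 of them reached 1 TPM in every library, and they encode 1 and the same protein of 103 residues including the first methionine. Their coding sequences were 85.3% to 100% identical over 78 pairs (median 93.9%). The steady sum was made of unequal genes.

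Hist1h4b (chr13:23757013-23757409, plus strand) led the class at 10.7, 11.9 and 9.22 TPM from 52, 68 and 107 fragments. Hist1h4d was at 4.38, 6.75 and 9.14 TPM, Hist1h4i at 5.75, 7.68 and 6.64 TPM and Hist1h4c at 3.94, 5.48 and 5.80 TPM. Hist1h4h went the other way from Hist1h4d, highest in replicate 2 and lowest in replicate 4, at 5.89, 3.097 and 1.16 TPM. Hist1h4a was at 1.06, 2.59 and 1.84 TPM. The only gene outside the larger clusters, Hist4h4 on chromosome 6, had 6, 0 and 2 fragments, or 0.172, 0 and 0.0239 TPM.

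Histones H2A and H2B form the dimers that flank the H3 and H4 core. The H2B genes summed to 12.8, 26.5 and 26.4 TPM, a mean of 21.9 ± 7.87 TPM (SD, n = 3) or 19.5% of the members. Replicate 2 was the lowest, and the gene with the largest gap between it and the other libraries was Hist1h2bj (chr13:22043214-22043676, plus strand), the second highest member, at 5.66, 12.7 and 14.7 TPM from 32, 84 and 199 fragments. Its rates differed between libraries with a ratio of 2.63 (adjusted p = 3.36e-06, chi-square test). Hist1h2bk had 1.89, 4.54 and 1.01 TPM and so was highest in replicate 3 only.

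The H2A genes summed to 11.8, 12.8 and 17.6 TPM, a mean of 14.0 ± 3.12 TPM (SD, n = 3) or 12.8% of the members. Hist1h2ae led them at 3.03, 5.61 and 4.31 TPM, followed by Hist1h2ai at 4.80, 2.66 and 4.53 TPM. H2A had the most genes without a fragment, with a fragment in 9 of its 20 genes, while H2B had a fragment in 14 of 17.

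The linker histone H1 sits outside the nucleosome core and helps to fold chromatin. Its 6 genes summed to 7.51, 8.46 and 7.02 TPM, a mean of 7.66 ± 0.732 TPM (SD, n = 3) and 7.07% of the members. Hist1h1e led at 4.27, 6.16 and 3.11 TPM, with a call between libraries at a ratio of 2.02 (adjusted p = 4.37e-04, chi-square test). Hist1h1c followed with 32, 26 and 114 fragments, called at a ratio of 2.11 (adjusted p = 0.00164, chi-square test). H1 genes have the longest coding sequences, although some genes of other classes, such as Hist1h2be, were counted over more bases. Counted as CPM, which takes no account of length, the H1 class made 11.8% of the members.

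**Figure D2:**
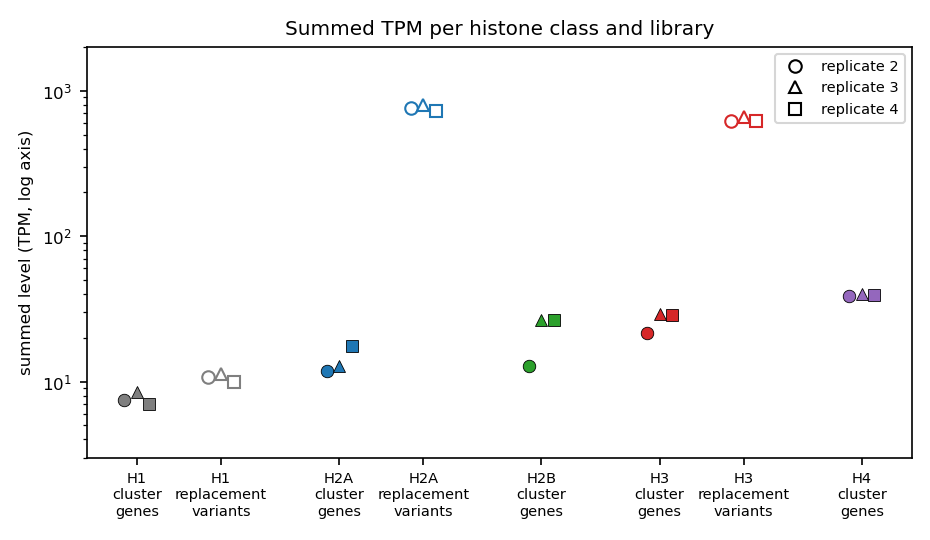
Summed level in TPM (vertical log axis) of each histone class in each library, filled markers for the cluster genes and open markers to their right for the replacement variants of the same class; H2B and H4 have no variant in the list. The cluster genes of H2A and H3 sum to 11.8 to 29.2 TPM and their variants to 616 to 794 TPM, while the H1 groups lie close to each other.

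Of the 17 members without a fragment 11 were H2A genes. The first 10 in symbol order were Hist1h1t, Hist1h2aa, Hist1h2ad, Hist1h2af, Hist1h2aj, Hist1h2al, Hist1h2an, Hist1h2ao, Hist1h2ap and Hist1h2ba. Hist1h1t, Hist1h2aa and Hist1h2ba are the known testis forms of H1, H2A and H2B, and these 3 share little or no sequence with other genes (0%, 10.3% and 27.4% of their 100-base stretches). A count of 0 does not exclude expression: 3 fragments would have made 0.0728, 0.0629 and 0.0303 CPM (fragments scaled by library total alone) in replicates 2, 3 and 4, and as a median over the members 0.514, 0.437 and 0.215 TPM. These limits and the intervals above cover counting error only.

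By position, 54 members belong to the Hist1 cluster on chromosome 13, 10 to Hist2 on chromosome 3, 3 to Hist3 on chromosome 11 and 1 to Hist4 on chromosome 6. Hist1 held 95.5% ± 0.350 of the summed member level (SD, n = 3), and all 17 detected members lie in it. Apart from Hist1h2al, which lies alone, the Hist1 genes fall into 3 stretches. The third stretch, chr13:23531050-23934851, has 30 genes and summed to 61.4, 74.6 and 73.4 TPM, or 63.9% of the members. The second, chr13:22035164-22043676, has only 5 genes within a few kilobases and summed to 14.1, 24.9 and 23.7 TPM, from Hist1h2bj and Hist1h4i above all. The first, chr13:21715763-21837530, has 18 genes but summed to 13.2, 12.1 and 16.6 TPM.

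In the other clusters no gene reached 1 TPM in every library. The highest of Hist2 was Hist2h2ac, with 0.158, 1.74 and 1.38 TPM, and the highest of Hist3 was Hist3h2ba, with 0.667, 0.455 and 1.00 TPM. Hist2h2be, an H2B gene known for a longer transcript, had the smallest ratio between libraries of the tested members, 1.24, at 0.688, 0.825 and 0.797 TPM. The 38 non-histone genes annotated inside these stretches were also low, with 0 of 38 at 1 TPM in every library. Most of them are annotated as miRNAs, pseudogenes or other non-coding entries. The protein-coding ones, Hfe, Trim38, Slc17a1, Slc17a2, Slc17a3 and Slc17a4, had no fragment.

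**Figure D3:**
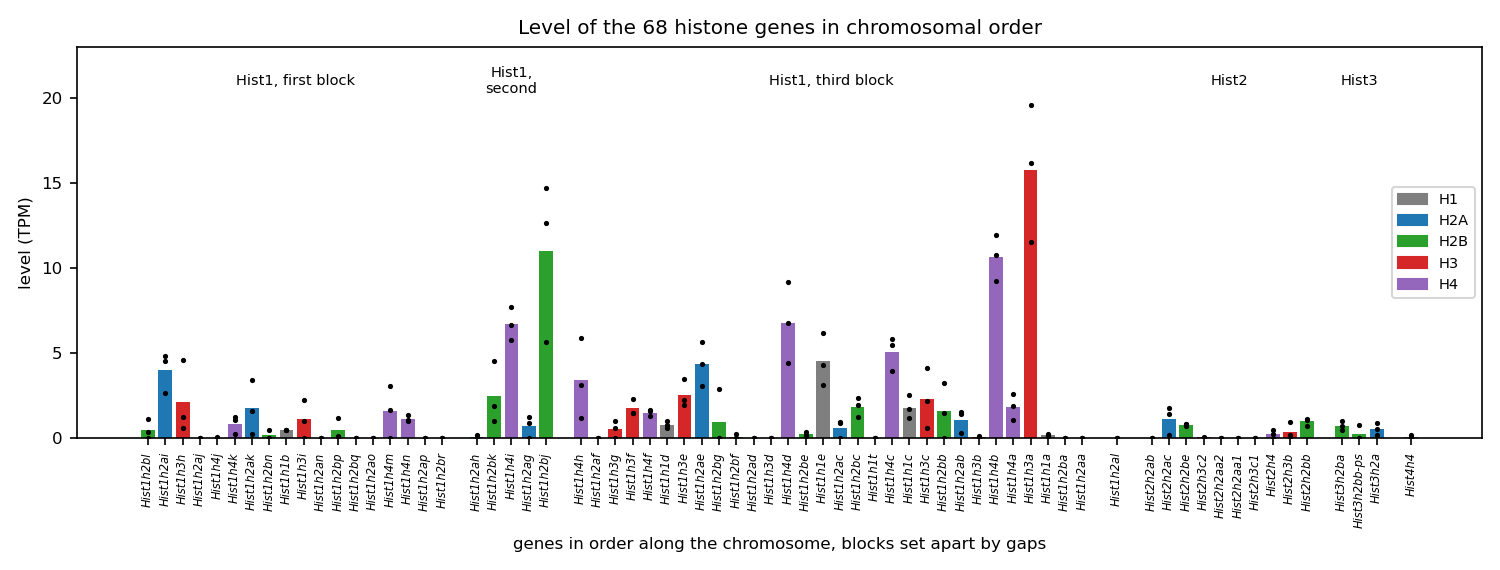
Level in TPM (vertical axis) of all 68 histone genes in their order along the chromosomes, with bars for the mean of 3 libraries, dots for the libraries, colours for histone class and gaps between stretches. High genes and genes without a fragment stand side by side, and the highest bars, Hist1h3a, Hist1h2bj and Hist1h4b, lie in Hist1 but outside its first stretch.

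The members include 13 divergent pairs of an H2A and an H2B gene, transcribed away from each other with 172 to 305 bases between their annotated starts. The 2 products are needed in equal number, so the partners were set side by side. In 7 of the 13 pairs the same partner was the higher in all 3 libraries, the H2A gene in 4 and the H2B gene in 3. In 1 of those 4 the H2B partner of Hist3h2a is the pseudogene Hist3h2bb-ps, with 5 fragments, so an equal need of 2 products does not apply. In 3 pairs neither gene had a fragment, and in the other 3 the order changed or tied between libraries. Hist2h2ac and Hist2h2be, 1 of those last 3, were close in mean level, at 1.09 and 0.770 TPM. Hist1h2ag had 0.845, 0 and 1.20 TPM and its partner Hist1h2bj 5.66, 12.7 and 14.7 TPM. In the pair of Hist1h2ae and Hist1h2bg the H2A gene was the higher, at 3.03, 5.61 and 4.31 TPM, whereas Hist1h2bg had 0, 0 and 2.87 TPM. These 2 pairs are among the 7. Both partners also share sequence with other genes, 76.2% of 100-base stretches in Hist1h2ag and 40.1% in Hist1h2bj, and 51.5% in Hist1h2ae and 61.6% in Hist1h2bg; the part of lost fragments in these gaps was not tested.

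The promoters of those 2 pairs are shown because each lies between the 2 genes of its pair. They are RefSeq sequences of GRCm38.p6, 300 bases from 250 before to 50 after the start of the H2B gene, read on its strand. Capitals mark the CCAAT box (CCAAT), the TATA box (TATAAA) and the octamer known from H2B promoters (ATTTGCAT), each searched on both strands and counted also where it overlaps another.
Hist1h2bj with Hist1h2ag, chr13:22042948-22043247, plus strand: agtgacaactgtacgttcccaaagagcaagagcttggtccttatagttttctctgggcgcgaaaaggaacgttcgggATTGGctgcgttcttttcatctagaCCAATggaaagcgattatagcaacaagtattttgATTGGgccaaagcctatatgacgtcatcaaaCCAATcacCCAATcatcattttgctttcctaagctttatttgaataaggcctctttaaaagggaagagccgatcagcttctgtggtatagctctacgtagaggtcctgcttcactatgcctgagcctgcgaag
Hist1h2bg with Hist1h2ae, chr13:23571150-23571449, plus strand: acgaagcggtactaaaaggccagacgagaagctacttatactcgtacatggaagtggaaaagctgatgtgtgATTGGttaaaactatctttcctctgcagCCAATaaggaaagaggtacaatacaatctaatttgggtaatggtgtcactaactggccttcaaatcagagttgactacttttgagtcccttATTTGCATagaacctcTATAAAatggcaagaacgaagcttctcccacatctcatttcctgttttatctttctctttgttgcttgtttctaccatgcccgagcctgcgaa

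The first held CCAAT 5 times and neither of the other motifs, and the second held CCAAT 2 times with TATAAA and ATTTGCAT 1 time each. Promoters of 60 of the 68 members were matched in the same table. CCAAT stood in all matched promoters of H1, H2A, H2B and H3 genes (6, 18, 14 and 10) but in 3 of 12 of the H4 genes, beside 37.4% of 32851 promoters of the same length. TATAAA stood in 58.3% of the members' promoters and 13.6% of all. ATTTGCAT stood in 7 of 18 H2A and 5 of 14 H2B promoters and in no matched promoter of the other classes, beside 1.74% of all. The H2A and H2B partners of a divergent pair share part of the stretch searched, so the same site can count for both. All these counts are matches of letters, and no binding was measured.

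Copies of 1 histone class are nearly alike, and by the counting program's defaults a fragment that aligns to several places is not assigned to a gene. To see how far this could reach, each member's counted sequence was read in 100-base stretches. These were looked for on both strands in the transcripts of other genes. Genes that overlap a member at the same place were included, so such an overlap counts as shared although it is not a copy. Overlaps and copies were not told apart. At least 50% of the stretches were shared in 33 members and fewer in 35. Of the 33, 13 had no fragment and 5 were detected at the 1 TPM threshold, and their median level was 0.150 TPM. Of the 35, 4 had no fragment and 12 were detected, with a median of 0.763 TPM.

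The members without a fragment had a median of 83.3% of stretches shared, and those with a fragment 40.1%. Shared sequence and a level went together in some genes: Hist1h4b reached 10.6 TPM with 71.8% shared. Another gene, 4930558J22Rik, is annotated over Hist1h4b on the opposite strand, and its part in that share was not separated. Other genes were low without shared sequence: Hist1h1b, with none shared, had 0.441, 0.469 and 0.460 TPM. The 35 less shared members summed to 75.0 ± 13.3 TPM (SD, n = 3). How many fragments were lost to copies was not tested, and levels of the more shared members are uncertain.

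**Figure D4:**
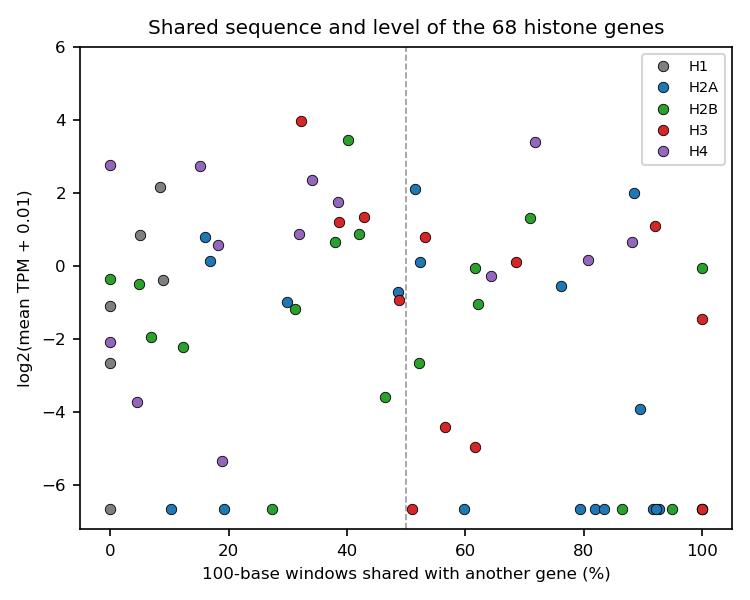
Share of 100-base stretches found in another gene (horizontal axis, percent) against log2(mean TPM + 0.01) for the 68 histone genes, coloured by class, with a dashed line at 50%. The row of points at the bottom holds the 17 genes without a fragment, 13 of them right of the line.

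Among the 42 genes with a stem-loop, the counted sequence ended within 100 bases of it in 29 and ran further in 13. The 29 had a median of 1.09 TPM, and 10 of them were detected at 1 TPM in every library. The 13 had a median of 0.434 TPM, with 4 detected. They include Hist1h4i and Hist1h3e, whose counted sequence ran 330 and 369 bases past the stem-loop, and Hist1h1c, at 840 bases. TPM divides by that longer length, and on the CPM scale the medians were 0.169 for the 29 and 0.129 for the 13. The 26 genes without a match had a median of 0.305 TPM, with 3 detected. Where transcripts ended was not measured.

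For 5 members another gene lies on the same strand over part of the counted sequence, where fragments fitting both are left out by default. Hist1h2be, listed with Hist1h1e, had 0.337, 0.112 and 0.164 TPM. The spans counted for these genes, chr13:23583742-23621124 and chr13:23621755-23622502, do not overlap, so this overlap is one of annotation only. Hist3h2a overlaps Trim17, which had no fragment. The others were Hist2h2aa1, Hist2h2bb and Hist2h3c1, and levels of all 5 are uncertain.

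Replacement variants were counted at far higher levels than the cluster genes. The variants carry poly(A) tails, which cluster mRNAs normally lack, and fragments that fit several copies are not assigned. The part of either in this gap was not tested. The 68 cluster genes summed to 92.6, 117 and 119 TPM, and the 11 replacement variants to 1394, 1469 and 1351 TPM. The variants were thus 15.05-fold, 12.5-fold and 11.4-fold higher in replicates 2, 3 and 4. As log2, replacement minus cluster genes, the difference was 3.91, 3.65 and 3.50, a mean of 3.69 ± 0.21 (SD, n = 3). Flipping the signs of these differences in all combinations (exact permutation test, two-sided) gave p = 0.25, the smallest that 3 libraries allow.

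The gap in counted level differed by class. So did the summed level of the variants, at 759 TPM for H2A, 635 TPM for H3 and 10.6 TPM for H1, and so did shared sequence. The 100-base stretches found in other genes were 10.3% to 100% in H2A, 32.2% to 100% in H3 and 0% to 8.99% in H1 genes. The part of fragments lost to copies in the ratios below was not tested. Cluster H2A genes summed to 14.0 ± 3.12 TPM and the 6 H2A variants to 759 ± 34.2 TPM, a ratio of variants over cluster genes of 56.0 ± 12.8 (SD, n = 3). Cluster H3 genes summed to 26.4 ± 4.28 TPM and the 3 H3 variants to 635 ± 25.6 TPM, a ratio of 24.4 ± 4.02. Cluster H1 genes summed to 7.66 ± 0.732 TPM and the 2 H1 variants to 10.6 ± 0.705 TPM, a ratio of only 1.39 ± 0.0582. The highest variants were H3f3b, which encodes H3.3, at 552 ± 24.5 TPM, and H2afz, which encodes H2A.Z, at 317 ± 13.1 TPM. The lowest were H1fx at 0.298 ± 0.0354 TPM and H2afy2, which had no fragment. H2afx, the variant with a stem-loop, was at 163, 177 and 154 TPM, above the sum of all cluster genes in each library.

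Some of the cluster genes with enough fragments to test differed between libraries, as did many other low genes. A call needed an adjusted p under 0.05 in a chi-square test of equal rates (Benjamini-Hochberg over all 13688 genes with 30 or more fragments) and a highest-to-lowest ratio of at least 2. Of the members 30 had enough fragments (31 to 477, median 73), and 16 of them were called, which was 53.3% beside 11% of all genes tested (1505 of 13688). Low genes reach a 2-fold ratio more easily, and among the 3800 genes with fragment sums in the members' range 38.4% were called. By adjusted p alone the shares were 56.7% of the members, 51% of the genes in that range and 70.5% of all genes. The median ratio of SD to mean was 39.7% in the tested members and 33.4% in the genes of their range.

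No library was high throughout. Taking log2(CPM + 0.5) as each library minus the mean of the others, the median over the 30 members was -0.12 in replicate 2, 0.06 in replicate 3 and 0.05 in replicate 4, with medians of -0.01, 0.00 and 0.01 over all genes tested. Of the 30 members 33.3%, 60% and 66.7% were higher in replicates 2, 3 and 4 than in the others, beside 48.0%, 50.1% and 53.6% of all genes tested and 48.3%, 46.1% and 55.8% of the genes in the members' range. Leaving out a library lowered the number of calls and of members tested: 9 of 24 were called without replicate 2, 6 of 22 without replicate 3 and 3 of 18 without replicate 4, where 5.87%, 3.97% and 4.27% of all genes were called. Of the 7, 10 and 13 calls lost in this way, 3, 5 and 8 were of members that no longer had 30 fragments.

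Each of the most divergent genes had its own pattern. Hist1h2ak had 0.208, 1.60 and 3.40 TPM from 1, 9 and 39 fragments, a ratio of 16.5 with a counting interval of 2.79 to 667 (adjusted p = 5.22e-04, chi-square test). Hist2h2ac had 1, 13 and 21 fragments, a ratio of 11.4 with a counting interval of 1.71 to 485 (adjusted p = 0.0251). Both were nearly absent from replicate 2. Hist1h3h was highest in replicate 3, with 6, 27 and 7 fragments and a ratio of 8.02 (adjusted p = 1.96e-08). Hist1h3c was lowest there, with 13, 4 and 59 fragments and a ratio of 7.10 (adjusted p = 4.46e-05).

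Some genes dropped out of a library altogether. Hist1h2bg had 0, 0 and 40 fragments and so was seen in replicate 4 only. With 3 fragments per library put in place of none, it was at least 5.63-fold higher there than in replicate 2 and at least 6.42-fold higher than in replicate 3 (adjusted p = 5.95e-08, chi-square test). Hist1h2bb had 0, 21 and 19 fragments (at least 6.15-fold) and Hist1h4m had 15, 0 and 19 (at least 5.69-fold). Among members present everywhere, Hist3h2a had 13, 26 and 10 fragments (ratio 5.40), Hist1h4h had 34, 21 and 16 (ratio 5.03) and Hist1h2bk had 11, 31 and 14 (ratio 4.60). In contrast Hist1h4f had 6, 9 and 18 fragments, in step with the library totals, at a ratio of 1.32 (adjusted p = 0.869).

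**Figure D5:**
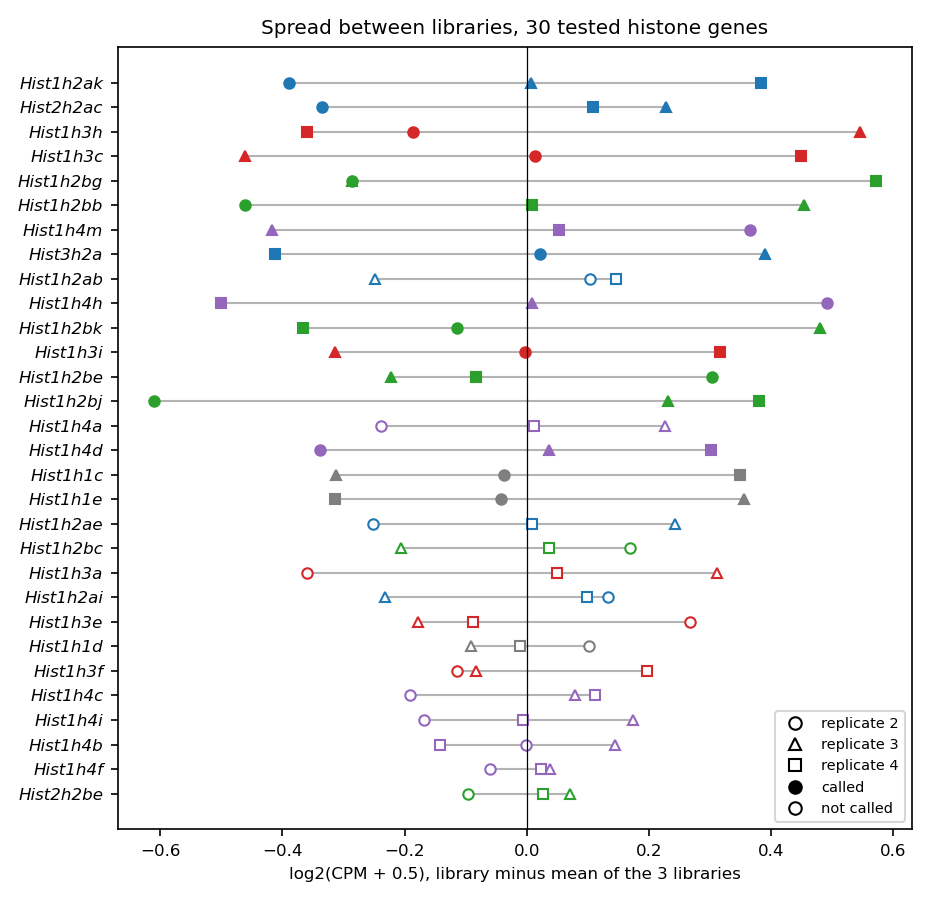
Spread of the 30 tested histone genes between libraries, as log2(CPM + 0.5) of each library minus the mean of the 3 (horizontal axis), sorted by highest-to-lowest CPM ratio with the largest on top; filled markers are called genes and open markers are not. The libraries change places from gene to gene; the constant of 0.5 CPM shrinks the distances of the lowest genes.

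The genes that make and use histone mRNA were well expressed beside the low cluster genes. All 10 genes of histone gene transcription were above 10 TPM in every library and 0 of 10 were called between libraries, beside 11% of all genes tested. Of the 1505 genes called, 1460 had fragment sums in the members' range, and all 10 genes lay above that range. A count of 0 here therefore does not show that levels were steady. Yy1 was highest at 132 ± 13.9 TPM and E2f1 next at 94.2 ± 3.32 TPM, and the lowest were Pou2f1, which binds the octamer, at 14.4 ± 1.27 TPM and Hinfp, a factor of H4 promoters, at 12.3 ± 0.502 TPM (SD, n = 3 each). Npat, the coactivator of the clusters, was at 41.7, 33.8 and 35.4 TPM.

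Of the 13 genes of histone mRNA 3′ processing, 11 were above 10 TPM in every library. Slbp, which binds the stem-loop, was at 76.1, 67.5 and 66.6 TPM. Snrpb, at 1031 ± 102 TPM, and Srrt, at 291 ± 8.89 TPM, were the highest. Lsm11, a protein of the U7 particle, was at 13.5 ± 1.04 TPM. Zfp473, another factor of that particle, had 20, 51 and 49 fragments and was the 1 gene called in the list, and the U7 RNA itself (Rnu7) had none.

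Histone mRNA decay genes were found too, all 6 that matched of 8 above 10 TPM, from Upf1 at 249 ± 24.2 and Exosc10 at 198 ± 9.69 TPM to Lsm1 at 32.8 ± 1.76 and Xrn1 at 12.7 ± 1.70 TPM. All 19 histone chaperones and import factors were above 10 TPM, led by Ssrp1 at 670 ± 8.09 and Rbbp7 at 483 ± 27.2 TPM, with Asf1a at 32.0 ± 2.48 and Hira at 23.5 ± 0.584 TPM the lowest. No decay gene and no chaperone was called (0 of 6 and 0 of 19), but all of them lay above the members' range of fragment sums, where few genes were called.

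Genes of S phase itself were high. All 15 were above 10 TPM, led by the helicase subunits Mcm3 at 841 ± 36.0 and Mcm5 at 761 ± 44.2 TPM, with Tyms at 28.9 ± 2.39 and Tk1 at 22.4 ± 1.72 TPM the lowest. Mcm3 alone was thus above the sum of all histone cluster genes. Mitosis genes were lower, with 7 of 10 above 10 TPM, from Top2a at 71.2 ± 5.54 and Cdc20 at 47.8 ± 2.25 TPM to Ccnb1 at 5.90 ± 0.910 and Ccnb2 at 2.49 ± 0.424 TPM. In neither list was a gene called between libraries (0 of 15 and 0 of 10), but all except Ccnb2 lay above the members' range of fragment sums, where few genes were called. By adjusted p alone Mcm3 (1.14e-55) and Mcm5 (2.35e-88) differed between libraries, at ratios of 1.10 and 1.14, and Mcm7 did not (0.203, chi-square test).

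Other RNAs without a poly(A) tail give a measure of what the libraries hold of that kind. Of 8, 4 reached 1 TPM in every library. Rpph1, the RNA of RNase P, was at 174, 276 and 216 TPM, above the sum of all histone cluster genes in each library. Terc, the RNA of telomerase, was the 1 gene of the 8 called between libraries, with 6, 20 and 17 fragments. Rn7sk, an abundant nuclear RNA of most cells, was at 6.44, 4.64 and 9.20 TPM, and Rny3 and Rnu7 had no fragment. These RNAs are short as well, and their part in the histone levels was not tested.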

How the data were processed

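The deposited tables hold raw fragment counts for each gene, made by the authors, with merged exon lengths. Per the file headers, counts came from featureCounts 1.4.6-p4 with pairs aligned at both ends, strand option 2, exons of GENCODE M13 and no option for fragments with several alignments or several genes; the file names refer to STAR, for which the sources used here give no version or settings. The build is mm10 per the labels. From these counts TPM was computed over the deposited length of each gene. Symbols came from GENCODE M21 by unversioned identifier, and 224 of 50600 genes had none. The members, gene lists and tests were chosen with earlier results of these data known.

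With 1 group there is no contrast. Each gene with 30 or more fragments over 3 libraries was tested for equal rates by a chi-square test (2 degrees of freedom) on TMM effective library sizes (edgeR 4.0.16, R 4.3.3), with Benjamini-Hochberg adjustment over all genes tested; a lowest count of 0 was replaced by 3 fragments in the ratio. The test treats fragments as independent and compares libraries, not conditions. On simulated data for this comparison (13692 genes), 92 of 100 genes changed 2.5-fold, 100 of 100 changed 4-fold and 0 of 13492 unchanged genes were called. The simulated libraries differed by counting error and the set changes only, so this does not give the rate of false calls in the real libraries. There the median chi-square was 14.1 over all genes tested, beside 1.39 with equal rates. Named with values were the 15 members highest in mean TPM, the highest of each class and cluster, the 10 called members with the largest ratio, and the 2 highest and 2 lowest genes of each list; others named were chosen after their values were seen. Zcchc6 and Zcchc11 of the decay list did not match, and the B cell marker list is not reported here as a whole. Alternatives were DESeq2 1.42.0 size factors, library totals, no count filter, other thresholds, CPM, a shortened length and each library left out. Python 3.11.15, numpy 2.4.6, pandas 2.3.3 and scipy 1.17.1 were used.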

Additional observations from a re-analysis of the deposited data

How the results depend on the processing

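Of the members, 17 were at 1 TPM in every library, 1 at 10 TPM and 3 at 1 CPM, and 19 to 22 when 1 library was left out. The 16 calls between libraries were also 16 with DESeq2 size factors or library totals, the same 16 genes each time. The calls were 23 of 51 without the count filter (13.8% of all genes), 11 of 20 in the less shared members, a subset chosen after seeing the data, and 3 to 9 when 1 library was left out, where fewer members were tested (18 to 24). The summed level of 110 TPM was 168 TPM with 200 bases taken off each length, 75.0 TPM over the less shared members, 18.2 as CPM, and 105 to 118 TPM with 1 library left out. The log2 difference of replacement variants minus cluster genes was 3.03 with the shortened length and 6.06 as CPM. The median difference of replicate 2, -0.12, was -0.05 with a pseudocount of 2 and -0.03 without the count filter, and that of replicate 3, 0.06, changed sign to -0.03 without the filter. Class shares moved for H1 (11.8% as CPM, 5.38% with the shortened length), H4 (31.1% as CPM) and H3 (22.3% with the shortened length). No paired analysis was possible because there is 1 group. With medians of 73 fragments over 3 libraries in the tested members, depth limits all single-gene comparisons.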
